A study of Mus musculus with 2 samples.

Results

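A small set of liver endothelial cells was carried along when CD45+ immune cells were isolated from mouse liver metastases, and these cells are described here. They were found in 2 droplet-based 3′ single-cell RNA sequencing libraries, 1 per group. C57BL/6 mice received MC38-LM3b cells, a strongly liver-metastatic derivative of the MC38 colon cancer line, by injection into the spleen. The injected cells of the Ctrl group expressed a scrambled hairpin (MC38-LM3b-shScramble), and those of the KD group expressed a short hairpin RNA against SLAMF3, a receptor encoded by Ly9 (MC38-LM3b-shSLAMF3). The hairpin was carried by the injected tumor cells alone, so the endothelial cells of both groups are host cells. Each library pooled the lesions of 3 mice and was enriched for CD45+ cells after lysis of red cells. With 1 library per group, no difference could be tested: mouse, pool, sort, library and hairpin cannot be told apart, and every interval given below is a 95% interval that covers counting error only.

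A cell was taken as endothelial where at least 3 of Stab2, Ptprb, Clec4g, Kdr, Tspan7 and Aqp1 had at least 1 UMI (unique molecular identifier, 1 per captured RNA molecule) and where Cd3e, Cd79a and Clec4f, which mark T cells, B cells and Kupffer cells, had none. Of the 19999 cells that passed the study's limits on genes, UMIs and mitochondrial RNA, 702 met this rule, 130 in Ctrl and 572 in KD. They held 1001263 UMIs in Ctrl and 3790682 in KD, with medians of 7080 and 6283 UMIs and of 2923 and 2638 genes per cell. The 2 libraries had 67207234 and 64444715 UMIs in all, and they shared 27 barcodes, of which 1 was an endothelial cell in KD and none was in Ctrl.

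The liver sinusoid is lined by a specialized endothelium that is fenestrated and lacks an organized basement membrane. Its cells clear waste molecules from the blood through scavenger receptors, hold clotting factor VIII, and differ along the path from the portal vein to the central vein, where they supply Wnt signals to hepatocytes. Like other endothelia they can display selectins, ICAM-1 and VCAM-1, which slow and arrest leukocytes on the vessel wall, and chemokines, which direct those leukocytes.

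The cells were selected on their own UMIs of these genes, so the values of the rule genes are a description of the choice. All 6 were found in 100 of 130 Ctrl cells and 465 of 572 KD cells, with a median of 68.5 and 71 UMIs over the 6 genes per cell. At the edge of the rule, the 9 Ctrl and 33 KD cells with exactly 3 of the genes had medians of 1004 and 1127 UMIs per cell. Just outside it, the 19 Ctrl and 69 KD cells with exactly 2 of the genes had medians of 1900 and 3403 UMIs. The exclusion genes took out 15 of 145 Ctrl cells and 66 of 638 KD cells that had at least 3 rule genes, 10.3% in each library.

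Endothelial cells made up 1.32% (1.11 to 1.57) of the filtered cells in Ctrl and 5.62% (5.18 to 6.08) in KD, a ratio of 4.24. The size of this ratio depended on the denominator. It was 6.48 once granulocytes were left out, 6.23 per tumor-like or fibroblast-like cell (85 in Ctrl and 60 in KD) and 1.94 per Kupffer cell. Kupffer cells, the resident macrophages of the sinusoid, numbered 30 (0.306%) in Ctrl and 68 (0.668%) in KD. Because the cells had been selected for CD45, these shares describe what passed the selection and not the makeup of the lesions.

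**Figure D1:**
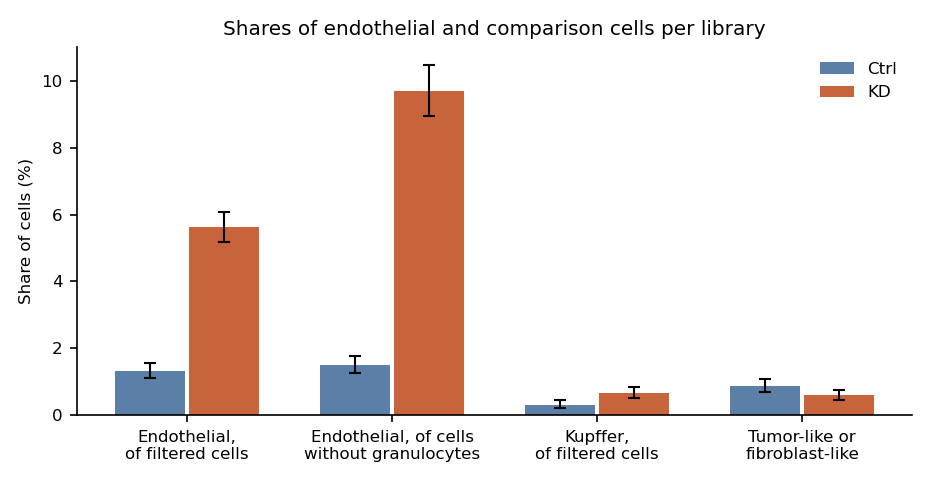
Share of cells, in percent, in the Ctrl and KD libraries (1 library each): endothelial cells of all filtered cells and of those without granulocytes, and Kupffer and tumor-like or fibroblast-like cells of all filtered cells; bars give the share and error bars exact 95% intervals for counting error. The endothelial share was 1.32% in Ctrl and 5.62% in KD, and 1.5% and 9.70% without granulocytes.

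The endothelial label was checked against genes that the rule did not use. Each cell was thinned to 1500 UMIs, and 16 Ctrl and 53 KD cells with fewer were set aside. The median endothelial cell held 8 of 18 further pan-endothelial genes in both libraries, while the median T cell held 0. The summed level of these 18 genes, in CPM (UMIs scaled to the same total in every set of cells), was 7586 in Ctrl and 7660 in KD, against 80.0 and 113 in T cells and 177 and 118 in macrophages. The summed level of 10 hepatocyte genes was 25 and 22.7 CPM. That of 9 T cell genes was 64.9 and 64.6 CPM, which the rule in part fixed, since it left out 10 Ctrl and 30 KD cells with a Cd3e UMI. Ptprc, which encodes CD45, stood at 86.9 (Ctrl) and 108 CPM (KD) in endothelial cells, against 777 and 861 CPM in all other cells. After thinning it was expected in 7.43% (3.36 to 13.9) of Ctrl and 9.49% (7.11 to 12.3) of KD endothelial cells, and in 75.2% and 79.7% of T cells.

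Nearly all of the cells were of the sinusoidal type. UMIs of Stab2, Clec4g, Oit3, Gpr182, Dnase1l3 and F8 outnumbered those of Vwf, Cd34, Plvap, Cldn5, Ly6c1 and Emcn in 129 of 130 Ctrl cells (99.2%, 95.8 to 100) and 566 of 572 KD cells (99%, 97.7 to 99.6). Without Stab2 and Clec4g in the marker count, the shares were 95.4% and 95.5%. The cells were the same, however, and both genes had served to choose them, so these shares are not free of the rule. Genes that set the endothelial cells most apart from all other filtered cells included Sox18 (709 and 111 times the CPM of the other cells in Ctrl and KD), Tek, the angiopoietin receptor (311 and 111 times), Cldn5, a tight junction protein (279 and 112 times), and Ephb4, an ephrin receptor (264 and 114 times).

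The identity genes showed little difference between the libraries. For each gene, UMIs were summed over the endothelial cells of a library, and the CPM of the 2 sums gave a log2 ratio, KD over Ctrl. Among 6725 genes with a mean of at least 20 CPM, the median log2 ratio was −0.04, with a 5th percentile of −0.73 and a 95th percentile of 0.65. A gene was called higher or lower at a log2 ratio of at least 1 in size, which 104 genes passed as higher in KD (1.55% of all measured) and 135 as lower (2.01%), or 3.55% in either direction. Of the 18 pan-endothelial genes, 0 passed in either direction, with a median of 0.09. Pecam1 (708 CPM in Ctrl, 654 CPM in KD) and Cdh5 (834 and 709 CPM), which join endothelial cells to each other, had log2 ratios of −0.12 (−0.24 to 0.01) and −0.23 (−0.35 to −0.12). Of 15 sinusoidal identity genes, 1 was higher and 0 were lower, with a median of 0.15. F8, the gene of factor VIII, had 1041 and 1152 CPM, Gpr182 had 964 and 913 CPM, and Fcgr2b, the Fc receptor of the sinusoid, had 2233 and 1831 CPM. The transcription factors Maf (2015 and 2472 CPM) and Gata4 (306 and 385 CPM) had log2 ratios of 0.30 and 0.33.

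Lyve1 (ENSMUSG00000030787), a hyaluronan receptor of sinusoidal and lymphatic endothelium, was the identity gene that stood out. It had 309 UMIs (309 CPM) in Ctrl and 2546 UMIs (672 CPM) in KD, a log2 ratio of 1.12 (0.95 to 1.30), and at 1500 UMIs per cell it was expected in 31.0% (22.7 to 40.3) of Ctrl and 50.4% (46.0 to 54.8) of KD cells. The remaining scavenger receptors lay on both sides of 0, from Scarb1, the HDL receptor (199 and 125 CPM, −0.67), to Mertk, a receptor for dying cells (252 and 383 CPM, 0.61). Stab2, a rule gene and the main hyaluronan scavenger of the sinusoid, had 1759 and 2874 CPM, which is given here as a description. Ctsl, a lysosomal protease that is abundant in these cells, had 1120 and 1830 CPM with a log2 ratio of 0.71, and a ratio of 0.69 in all other cells.

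Several genes that arrest leukocytes on the vessel wall were lower in KD endothelial cells. Of 10 measured adhesion genes, 4 were lower and 0 were higher, with a median of −0.30, and the 4 were Vcam1, Sele, Selp and Icam1. Vcam1 (ENSMUSG00000027962), the ligand of the integrin VLA-4, had 642 UMIs (641 CPM) in Ctrl and 836 UMIs (221 CPM) in KD, a log2 ratio of −1.54 (−1.69 to −1.39). Selp (ENSMUSG00000026580), encoding P-selectin, had 512 UMIs (511 CPM) and 621 UMIs (164 CPM), a log2 ratio of −1.64 (−1.81 to −1.47). For both genes the 572 KD cells thus held only somewhat more UMIs than the 130 Ctrl cells. Sele (ENSMUSG00000026582), encoding E-selectin, had 156 UMIs (156 CPM) and 166 UMIs (43.8 CPM), a log2 ratio of −1.83 (−2.16 to −1.51). Icam1 (ENSMUSG00000037405), the ligand of LFA-1, had 250 UMIs (250 CPM) and 455 UMIs (120 CPM), a log2 ratio of −1.06 (−1.28 to −0.83), which lay inside the fold at −0.44 when the cells were thinned and at −0.80 without likely doublets.

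The other 6 adhesion genes did not pass the fold. Icam2, which endothelium carries at rest, had 183 and 133 CPM (−0.45), F11r had 194 and 175 CPM (−0.15), Mcam had 219 and 218 CPM (0.00), and Jam2, a junction protein, had 393 and 556 CPM (0.50). In all other filtered cells the log2 ratio was 0.13 for Vcam1, 0.91 for Selp, −1.12 for Sele and −0.17 for Icam1. It was −1.04 (−1.31 to −0.78) for Vcam1 and −1.70 (−2.45 to −1.01) for Sele in the tumor-like or fibroblast-like cells among them. Selp had 36 UMIs (26.6 CPM) in Ctrl and 6 UMIs (6.65 CPM) in KD there. The ratio of Vcam1 was −0.33 in Kupffer cells, 0.26 in macrophages and 0.45 in T cells. Lower levels of Vcam1, Selp and Sele in KD were thus not particular to endothelial cells. Within endothelial cells with fewer than 3 UMIs summed over 6 leukocyte genes, the log2 ratio was −1.27 for Vcam1, −1.65 for Selp, −1.85 for Sele and −1.03 for Icam1.

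The difference was also seen in how many cells held these transcripts. At 1500 UMIs per cell, Vcam1 was expected in 44.6% (35.3 to 54.2) of Ctrl and 21.5% (18.0 to 25.3) of KD endothelial cells, Selp in 36.1% (27.3 to 45.6) and 17.2% (14.0 to 20.7), and Sele in 15.5% (9.43 to 23.5) and 4.50% (2.88 to 6.65). T cells, which should lack all 3, showed at most 0.388% for Vcam1, 0.181% for Selp and 0.0632% for Sele. Icam1 was expected in 24.8% and 14.7% of endothelial cells and in 9.38% and 10.8% of T cells, so its KD share lay little above that of another cell type. Cells with at least 2 of the 4 genes made up 34.7% (26.1 to 44.2) of Ctrl and 12% (9.33 to 15.1) of KD endothelial cells, and cells with none made up 29.5% and 56.9%.

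**Figure D2:**
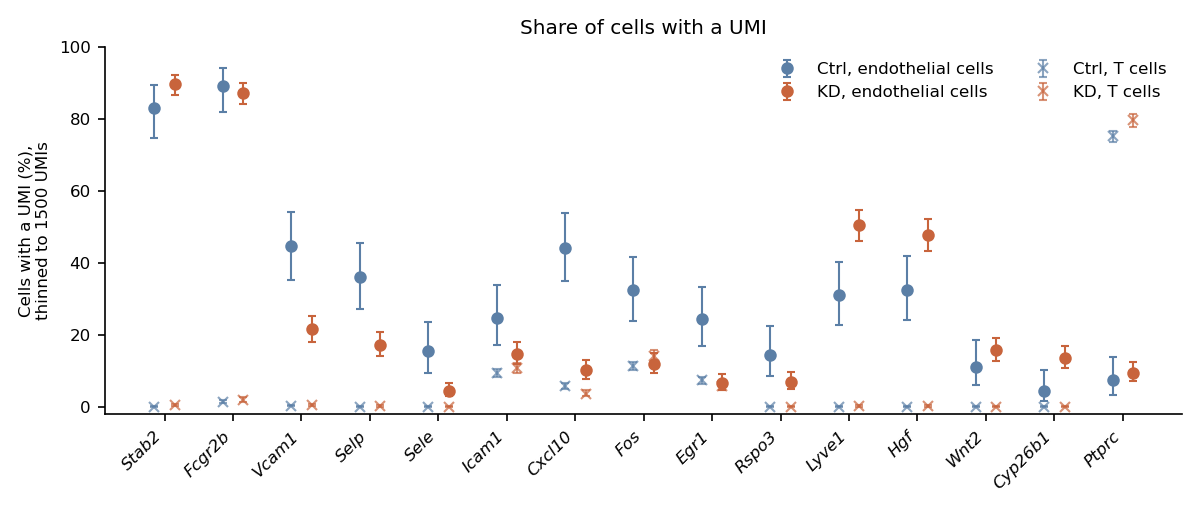
Expected share of cells, in percent, with at least 1 UMI of each gene once cells are thinned to 1500 UMIs, for endothelial cells and T cells of both libraries, with 95% intervals for counting error. Vcam1, Selp, Sele, Cxcl10, Fos and Egr1 were found in fewer KD than Ctrl endothelial cells, and Lyve1 and Hgf in more.

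Chemokine transcripts of endothelial cells differed in the same library. Of 11 measured chemokine genes, 3 were lower and 1 was higher in KD, with a median of −0.46. Cxcl10 (ENSMUSG00000034855), a CXCR3 ligand that draws activated T cells, had 1073 UMIs (1072 CPM) in 80 Ctrl cells and 737 UMIs (194 CPM) in 123 KD cells, a log2 ratio of −2.46 (−2.60 to −2.33). Its ratio in all other cells was −1.42. Cxcl1 (ENSMUSG00000029380), a neutrophil attractant, had 101 UMIs (101 CPM) in 29 Ctrl cells and 56 UMIs (14.8 CPM) in 30 KD cells, a log2 ratio of −2.77 (−3.27 to −2.29), against 0.09 in all other cells. Among these other cells the ratio of Cxcl1 was 0.88 in macrophages and 0.05 in T cells. It was −2.20 (−3.27 to −1.21) in Kupffer cells, from 29 and 13 UMIs, and −1.39 (−1.57 to −1.21) in tumor-like or fibroblast-like cells. Cells with Cxcl10 held a median of 4.5 UMIs of it in Ctrl and 2 in KD, and the 5 highest cells held 33.1% and 39.5% of its UMIs.

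Not all chemokines moved alike. Cxcl9, another CXCR3 ligand, had 313 and 224 CPM (−0.48), Cxcl16 had 137 and 101 CPM (−0.43) and Cxcl2 had 310 and 331 CPM (0.09). Ccl5 (134 and 46.2 CPM, −1.54) had a ratio of 0.14 in endothelial cells with fewer than 3 leukocyte UMIs, and Ccl6 (27.0 and 98.7 CPM, 1.87) had 1.65 in all other cells, where its level was 259 and 812 CPM. Both are genes of leukocytes, and the part of leukocyte RNA in their values was not tested.

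**Figure D3:**
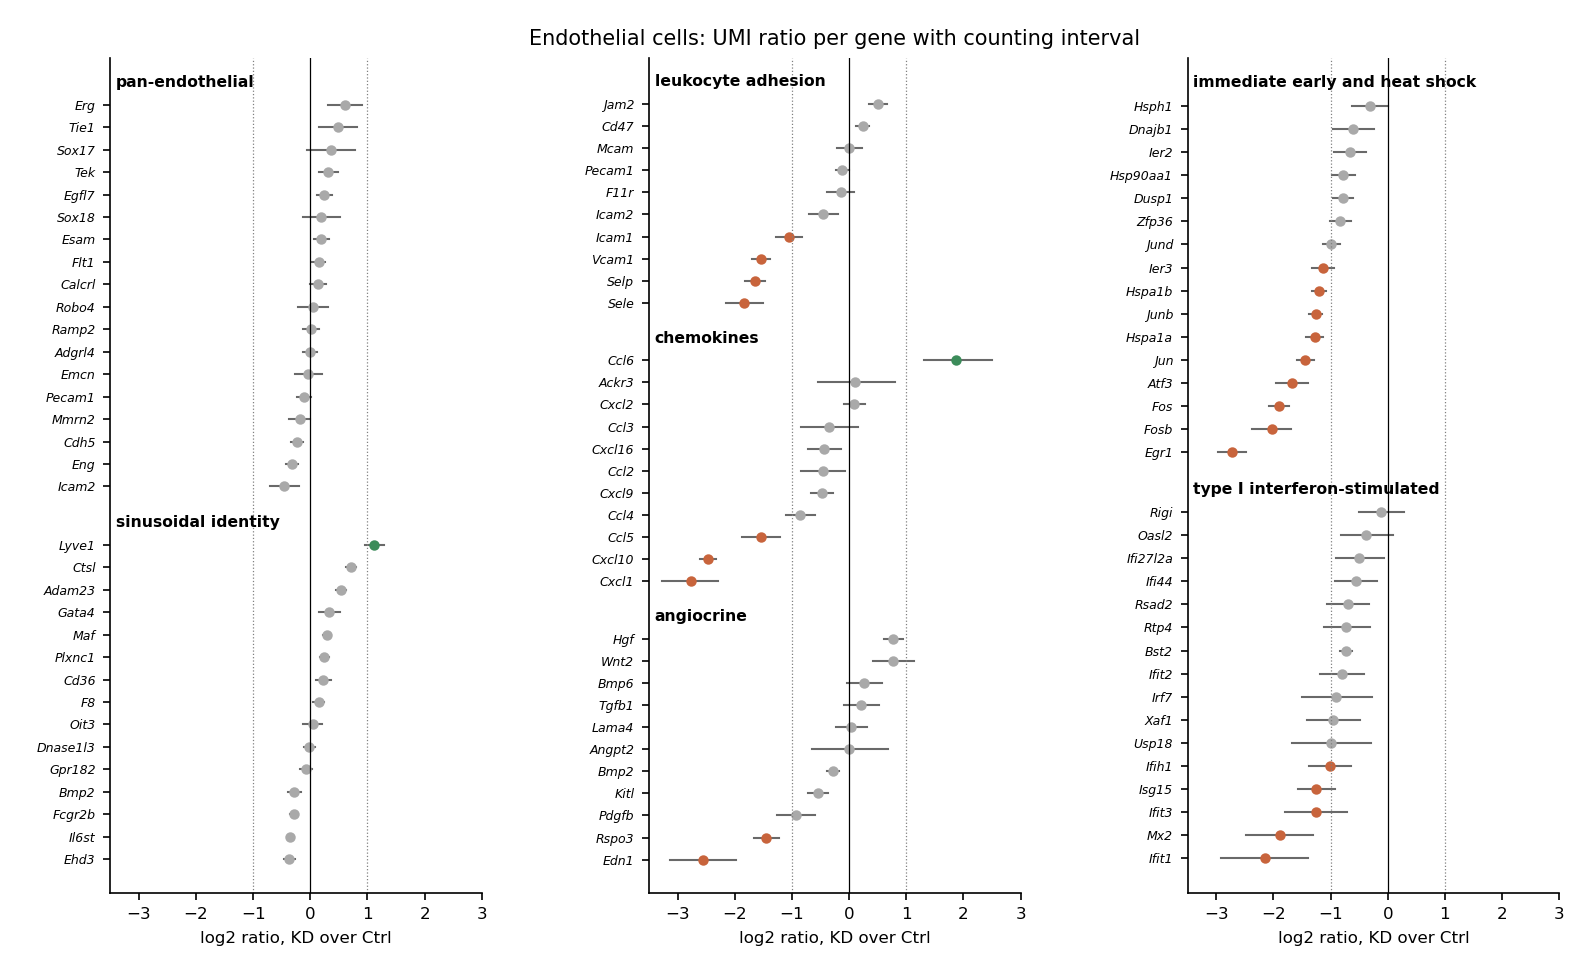
Log2 ratio of KD over Ctrl in endothelial cells for each measured member of 7 gene lists; points give the ratio, lines its 95% interval for counting error and dotted lines a log2 ratio of 1 in either direction, with genes past the fold in orange (lower) or green (higher) and the others in gray. The pan-endothelial genes lay between −0.45 and 0.60, and Cxcl1 lay lowest of the genes shown at −2.77.

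The promoters of a few of these genes are shown because these chemokine and interferon-inducible genes passed the fold as lower, and short DNA motifs are known for such genes. The RefSeq windows cover 250 bases before and 50 bases after an annotated start, on build GRCm38.p6, while the counts were made on GRCm39. Matches to the core of the interferon-stimulated response element (GAAA, any 2 bases, then GAAA, on either strand) and to the NF-kappaB consensus, which overlap in places, stand in capitals. Cxcl10 (chr5:92348840-92349139, minus strand) holds 1 match of the former and 3 of the latter, Cxcl1 (chr5:90890995-90891294, plus strand) holds 2 overlapping NF-kappaB matches, Isg15 (chr4:156200769-156201068, minus strand) holds 3 overlapping interferon element matches, and Ifit1 (chr19:34640639-34640938, plus strand) holds 2.
Cxcl10: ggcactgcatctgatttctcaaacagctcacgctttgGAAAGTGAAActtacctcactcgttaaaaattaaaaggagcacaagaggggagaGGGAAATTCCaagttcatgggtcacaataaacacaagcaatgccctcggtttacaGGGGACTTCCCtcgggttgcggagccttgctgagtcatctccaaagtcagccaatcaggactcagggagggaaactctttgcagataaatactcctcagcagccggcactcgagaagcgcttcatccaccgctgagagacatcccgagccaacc
Cxcl1: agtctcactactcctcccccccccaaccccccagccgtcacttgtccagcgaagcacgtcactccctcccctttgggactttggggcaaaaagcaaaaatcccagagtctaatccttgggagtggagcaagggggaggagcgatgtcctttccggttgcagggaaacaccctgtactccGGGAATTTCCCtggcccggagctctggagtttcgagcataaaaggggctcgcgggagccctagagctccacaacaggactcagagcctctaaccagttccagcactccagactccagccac
Isg15: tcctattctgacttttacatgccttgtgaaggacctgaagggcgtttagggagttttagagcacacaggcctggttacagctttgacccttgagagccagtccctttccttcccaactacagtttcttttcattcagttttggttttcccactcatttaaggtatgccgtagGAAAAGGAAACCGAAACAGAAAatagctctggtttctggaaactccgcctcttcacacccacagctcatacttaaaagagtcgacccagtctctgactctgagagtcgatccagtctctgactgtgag
Ifit1: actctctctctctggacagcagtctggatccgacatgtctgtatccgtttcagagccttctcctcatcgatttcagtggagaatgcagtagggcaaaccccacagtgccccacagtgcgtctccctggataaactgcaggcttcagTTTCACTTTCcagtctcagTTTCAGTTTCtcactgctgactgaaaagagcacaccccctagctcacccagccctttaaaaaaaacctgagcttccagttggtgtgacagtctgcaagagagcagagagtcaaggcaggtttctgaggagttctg

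The interferon element was found in 3.44% of all 32851 RefSeq windows and, counting a gene where any of its windows matched, in 3.99% of all 27025 genes. It was in 8 of the 11 genes with a window on the interferon-gamma list and in 6 of 11 on the type I interferon list. It was in 1 of 8 sinusoidal identity genes (Plxnc1), and in 0 of 6 adhesion, 0 of 13 immediate early and heat shock and 0 of 10 pan-endothelial genes. The NF-kappaB consensus, searched after the values had been seen, was found in 8.46% of all windows and 9.55% of all genes. It was in 5 of 13 immediate early and heat shock genes, 1 of 10 pan-endothelial genes and 0 of 6 adhesion genes. The consensus was also in 2 of 8 sinusoidal identity genes, 3 of 11 interferon-gamma genes and 2 of 11 type I interferon genes. Among the 12 highest ratios described below, 2 of 7 genes with a window held it, and among the 12 lowest, 3 of 6. Of the 10 measured adhesion genes only 6 had a window, and Vcam1 had none, so it was not searched. GAS elements (TTC, any 3 bases, then GAA, 8.30% of all windows and 9.55% of all genes) were in Sele and Icam1. Of the 13 immediate early and heat shock genes, 1 held the serum response element (Zfp36), against 1.63% of all windows and 1.81% of all genes. The cyclic AMP response element (TGACGTCA) was in 1 of them (Dusp1), against 1.79% of all windows and 2.03% of all genes. A match says that these letters stand in the window and nothing about binding.

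Part of the interferon-inducible genes were lower in KD endothelial cells. Of 16 measured type I interferon-stimulated genes, 5 were lower and 0 higher, all 16 had a ratio below 0, and the median was −0.84, against −0.43 in all other cells and −0.65 in macrophages. In T cells the summed level of the list was 694 CPM in Ctrl and 709 CPM in KD, and in endothelial cells it was 2148 and 1243 CPM. Isg15, a ubiquitin-like modifier, had 134 and 56.2 CPM, a log2 ratio of −1.25 (−1.57 to −0.93). Ifit1, a sensor of viral RNA ends, had 34 UMIs in Ctrl and 29 UMIs in KD, or 34 and 7.65 CPM, a log2 ratio of −2.15 (−2.92 to −1.39). Mx2 (51.9 and 14.0 CPM, −1.89), Ifit3 (47.9 and 20 CPM, −1.26) and Ifih1, encoding the RNA sensor MDA5 (96.9 and 48.0 CPM, −1.01), were the others. Ifit1 and Mx2 met the limit of 20 CPM through Ctrl alone. The most abundant member, Bst2, encoding tetherin, had 1030 and 619 CPM (−0.73).

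Of 16 interferon-gamma GTPases and targets, 3 were lower and 0 higher, with a median of −0.77, against −0.81 in all other cells and −0.94 in macrophages, while the summed level in T cells was 811 and 812 CPM. Iigp1, an immunity-related GTPase, had 796 UMIs (795 CPM) and 1258 UMIs (332 CPM), a log2 ratio of −1.26 (−1.39 to −1.13), and was expected in 57.7% and 30.4% of endothelial cells at 1500 UMIs but in 2.36% and 2.75% of T cells. Irf1, a transcription factor of the response, had 235 and 93.9 CPM (−1.32), and Socs1, its feedback inhibitor, had 50.9 and 12.9 CPM (−1.98). Socs1 met the limit of 20 CPM through Ctrl alone. For 12 of these 16 genes the endothelial level was below that of the other cells in the library where the gene was higher. Cd274, encoding PD-L1, had 116 UMIs (116 CPM) and 220 UMIs (58.0 CPM), a log2 ratio of −1.0 (−1.33 to −0.66) that lay just inside the fold, and 432 and 294 CPM in the other cells.

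Antigen presentation genes differed by less. Of 15 MHC class I genes, 0 passed the fold and 14 had a ratio below 0, with a median of −0.34 and values of −0.34 for H2-K1 (1719 and 1363 CPM) and −0.39 for B2m (2610 and 1998 CPM), against a median of −0.43 in all other cells. MHC class II genes had a median of −0.01 over 7 genes. Their summed level was 1848 and 1798 CPM in all endothelial cells but 277 and 267 CPM in those with fewer than 3 leukocyte UMIs, so most of this RNA lay in the 16 Ctrl and 77 KD cells that also held leukocyte transcripts.

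**Figure D4:**
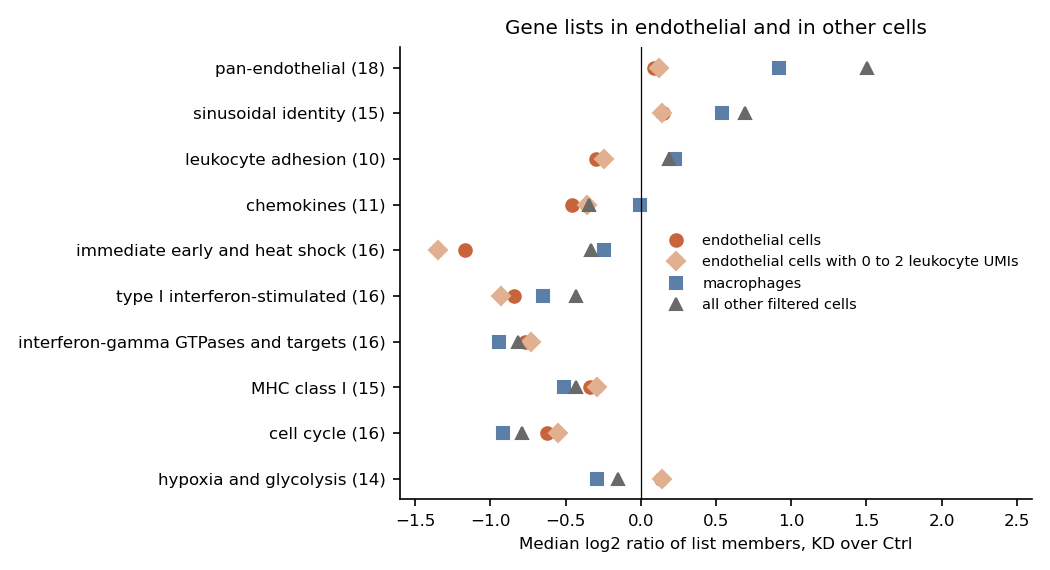
Median log2 ratio of KD over Ctrl over the measured members of 10 gene lists (number of members in brackets), in endothelial cells, in endothelial cells with 0 to 2 leukocyte UMIs, in macrophages and in all other filtered cells. The interferon and MHC class I medians lay below 0 in all of these cells, and the immediate early and heat shock median was −1.17 in endothelial cells and −0.33 in all other filtered cells.

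Immediate early genes were the group with the most members past the fold. These genes are switched on within minutes of stress or stimulation, and tissue digestion is known to induce them as well. Of 16 immediate early and heat shock genes, 9 were lower in KD and 0 higher, all 16 had a ratio below 0, and the median was −1.17, against −0.33 in all other cells and −0.25 in macrophages. The summed level of the list was 6755 CPM in Ctrl and 2900 CPM in KD endothelial cells. It was also lower in KD in Kupffer cells (12680 and 6091 CPM) and in tumor-like or fibroblast-like cells (10545 and 4949 CPM), so the difference was not particular to endothelial cells. Egr1 (ENSMUSG00000038418), a zinc finger transcription factor, had 400 UMIs (399 CPM) in Ctrl and 229 UMIs (60.4 CPM) in KD, a log2 ratio of −2.73 (−2.97 to −2.49). Its ratio was −2.81 in Kupffer cells, −1.42 in tumor-like or fibroblast-like cells, −0.82 in macrophages and −0.31 in T cells. Fos (ENSMUSG00000021250), a subunit of AP-1, had 545 UMIs (544 CPM) and 553 UMIs (146 CPM), a log2 ratio of −1.90 (−2.07 to −1.73), against 0.04 in all other cells. The ratio of Fos was −0.87 in Kupffer cells, −1.05 in tumor-like or fibroblast-like cells, −0.14 in macrophages and 0.42 in T cells. Jun, its partner, had 597 and 220 CPM (−1.44), Junb had 1014 and 423 CPM (−1.26, against 0.37 in all other cells), and Atf3 had 204 and 63.6 CPM (−1.68). The heat shock genes Hspa1a (617 and 255 CPM, −1.28) and Hspa1b (852 and 370 CPM, −1.20) were lower as well, and their ratios in all other cells were −0.85 and −0.83.

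Fos, Jun and Egr1 were the members of this list whose endothelial level reached that of the other cells in the library where the gene was higher. At 1500 UMIs per cell, Fos was expected in 32.3% (23.9 to 41.7) of Ctrl and 11.9% (9.28 to 15.0) of KD endothelial cells, and in 11.4% and 14.2% of T cells. Egr1 was expected in 24.5% and 6.56% of endothelial cells and in 7.34% and 5.73% of T cells. The KD shares of both genes were thus at the level of T cells. Cells with at least 3 of 8 immediate early genes made up 38.9% (29.9 to 48.4) of Ctrl and 12.1% (9.41 to 15.2) of KD endothelial cells.

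**Figure D5:**
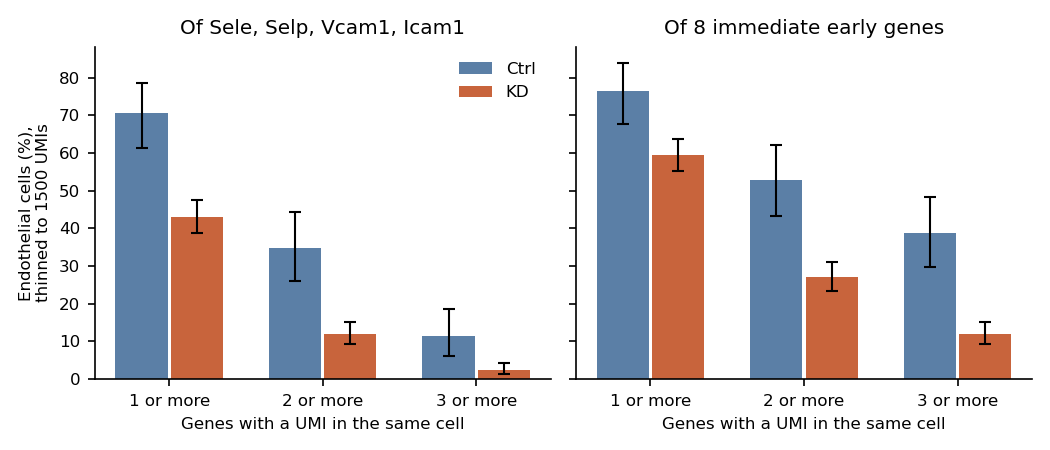
Share of endothelial cells, in percent, with at least 1, 2 or 3 of Sele, Selp, Vcam1 and Icam1 (left) and of 8 immediate early genes (right) in the same cell after thinning to 1500 UMIs; bars are means of 20 thinning draws and error bars 95% intervals for counting error. At least 2 of the 4 adhesion genes were found in 34.7% of Ctrl and 12% of KD cells.

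Because some immediate early, adhesion and chemokine genes were lower in the same library, the endothelial cells were split by the number of immediate early genes found in 1 thinning draw, a split that was chosen after the values had been seen. Cells with 0 such genes numbered 31 in Ctrl and 204 in KD, cells with 1 or 2 numbered 38 and 251, and cells with at least 3 numbered 45 and 64. In both libraries the cells with more immediate early genes had more adhesion and chemokine RNA. Vcam1 had 327, 492 and 954 CPM in the 3 Ctrl classes and 156, 214 and 408 CPM in the 3 KD classes, and Cxcl10 had 84.0, 355 and 2259 CPM in Ctrl and 53.7, 67.1 and 896 CPM in KD.

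Within these classes the ratios of Vcam1 and Selp remained below 0 but were closer to it than over all cells. For Vcam1 they were −1.07 (−1.46 to −0.66) with 0 immediate early genes, −1.20 (−1.46 to −0.94) with 1 or 2 and −1.23 (−1.46 to −0.99) with at least 3. For Selp they were −0.89 (−1.35 to −0.41), −1.13 and −1.33 (−1.59 to −1.08). For Sele they were −1.12 (−2.32 to 0.25), an interval that holds 0, −1.04 (−1.71 to −0.33) and −1.20 (−1.63 to −0.78). The ratio of Cxcl10 was −0.65 (−1.40 to 0.18) with 0 immediate early genes, an interval that holds 0, −2.40 with 1 or 2 and −1.33 (−1.49 to −1.18) with at least 3. That of Icam1 was −0.06 (−0.76 to 0.72), −0.99 and −0.58. Lyve1 was higher in KD in each class, at 1.45, 1.35 and 0.58 (0.30 to 0.87). The part of tissue handling in these values was not tested, and with 1 library per group it cannot be told apart from the hairpin.

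Sinusoidal endothelium sends signals to hepatocytes. Of 11 angiocrine genes, 2 were lower and 0 higher. Rspo3 (ENSMUSG00000019880), a Wnt amplifier made by endothelium near the central vein, had 308 UMIs (308 CPM) in 27 Ctrl cells and 427 UMIs (113 CPM) in 67 KD cells, a log2 ratio of −1.45 (−1.66 to −1.23). Edn1, the vasoconstrictor endothelin, had 68 UMIs (67.9 CPM) and 44 UMIs (11.6 CPM), a log2 ratio of −2.55 (−3.13 to −1.98). It met the limit of 20 CPM through Ctrl alone. Hgf (ENSMUSG00000028864), the hepatocyte growth factor, had 331 UMIs (331 CPM) and 2148 UMIs (567 CPM), a log2 ratio of 0.78 (0.61 to 0.95), and Wnt2, the main Wnt ligand of these cells, had 75 UMIs (74.9 CPM) and 483 UMIs (127 CPM), a log2 ratio of 0.77 (0.41 to 1.14). Neither of the last 2 passed the fold. Bmp2, which controls hepatic iron sensing, had 902 and 743 CPM (−0.28).

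Rspo3 and Wnt2 are both pericentral genes, and their ratios had opposite signs. Rspo3 was found in 20.8% of Ctrl and 11.7% of KD cells, and 55.2% of its Ctrl UMIs lay in 5 cells. Cells with a Rspo3 UMI had a pericentral profile in both libraries. Kit, a receptor of pericentral endothelium, had 809 and 932 CPM in them and 300 and 488 CPM in the cells without, Cdh13 had 577 and 579 CPM against 208 and 253 CPM, and Efnb2, a periportal and arterial gene, had 9.46 and 20.3 CPM against 120 and 121 CPM. Within the cells with a Rspo3 UMI, the level of Rspo3 was 1457 and 865 CPM, a log2 ratio of −0.75 that the choice of cells in part fixes. Among the lower adhesion genes, Selp had a ratio of −1.5 (−1.83 to −1.16) in cells with a Rspo3 UMI and −1.58 (−1.78 to −1.37) in cells without, Vcam1 had −1.18 and −1.59, and Sele had −1.89 and −1.76. Icam1 had −0.12 (−0.79 to 0.58) in cells with a Rspo3 UMI, an interval that holds 0, and −1.23 (−1.47 to −0.99) in cells without. Edn1 differed, with −0.34 (−1.37 to 0.76) in cells with and −3.52 (−4.34 to −2.76) in cells without a Rspo3 UMI, the latter from 55 and 20 UMIs.

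As to zonation more widely, 2 of 8 pericentral genes were lower (Rspo3 and Selp) and 1 of 10 periportal genes was lower (Clu, 106 and 41.9 CPM, −1.34), and 0 were higher. Fabp4 had 1696 and 2636 CPM (0.64), Kit had 407 and 546 CPM (0.42) and Thbd had 184 and 232 CPM (0.34). On the periportal side, Efnb2 had 96.9 and 108 CPM (0.15), Dll4 had 82.9 and 69.9 CPM (−0.25) and Ntn4 had 634 and 442 CPM (−0.52). The medians of the pericentral and periportal lists were 0.19 and 0.00.

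The 12 lowest ratios were taken among genes whose endothelial level was at least that of the other cells in the library where the gene was higher. Of these, 7 have been described above (Cxcl1, Egr1, Cxcl10, Fos, Sele, Selp and Vcam1). Cxcl1, Egr1, Cxcl10 and Fos met this limit through Ctrl alone: in KD their endothelial levels of 14.8, 60.4, 194 and 146 CPM lay below those of the other cells, at 56.7, 81.0, 253 and 519 CPM. The other 5 were Taf4b, Hbegf, Nup210l, Col5a2 and Nol10. Hbegf, a ligand of the EGF receptor, had 209 UMIs (209 CPM) in 47 cells and 182 UMIs (48.0 CPM) in 82 cells, a log2 ratio of −2.12 (−2.41 to −1.83). Col5a2, a fibrillar collagen chain, had 180 UMIs (180 CPM) and 208 UMIs (54.9 CPM), a log2 ratio of −1.71 (−2.01 to −1.42). Its level was under 3 CPM in all other cells pooled, but 51.8 (Ctrl) and 46.6 CPM (KD) in tumor-like or fibroblast-like cells. Taf4b, a subunit of the TFIID complex, had a log2 ratio of −2.29 that became −1.80 without the cell with most of its UMIs, which held 61 of 171 in Ctrl. The next gene, outside the 12, was Myc, with 136 and 46.7 CPM.

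Among the 12 highest, Hbb-bs, a beta globin chain, led through a single KD cell, which held 1353 of its 1373 UMIs. Ctrl had 2 UMIs, and without the highest cell the log2 ratio of 7.5 became 2.40 (−0.24 to 7.77). Cyp26b1 (ENSMUSG00000063415), which breaks down retinoic acid, had 28 UMIs (28.0 CPM) in 15 Ctrl cells and 420 UMIs (111 CPM) in 182 KD cells, a log2 ratio of 1.99 (1.43 to 2.59). Of its KD UMIs the 5 highest cells held 11.9%, so the level was spread over many cells. Col13a1, a transmembrane collagen, had 109 UMIs (109 CPM) and 997 UMIs (263 CPM), a log2 ratio of 1.27 (0.99 to 1.57), and was expected in 14.2% (8.35 to 21.9) and 30.5% (26.6 to 34.7) of cells at 1500 UMIs. Tcn2, the vitamin B12 carrier, had 135 and 294 CPM (1.13), Tns1, a focal adhesion protein, had 64.9 and 149 CPM (1.19), and Cdh4, a cadherin, had 76.9 and 177 CPM (1.20). Zfp521, Snx29, Osbpl10, Lyve1, Trp53i11 and Pced1b, with ratios from 1.1 to 1.23, were the remaining ones (Pced1b met the limit through KD alone, with 35.0 CPM in Ctrl endothelial cells against 35.6 CPM in the other cells), and Dapk2, with 43.9 and 92.6 CPM, came next outside the 12.

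RNA of leukocytes was present in part of the endothelial cells. At least 3 UMIs over Ptprc, Laptm5, Coro1a, Rac2, Cytip and Cd53 were found in 16 Ctrl cells (12.3%, 7.20 to 19.2) and 77 KD cells (13.5%, 10.8 to 16.5), and these cells had medians of 11550 and 9644 UMIs against 6912 and 6037 in the others. Granulocyte RNA was far higher in KD. S100a8 had 7 UMIs in Ctrl and 2320 in KD and S100a9 had 12 and 3640, and 25 KD cells held at least 10 UMIs of the pair, all of them among the cells with leukocyte transcripts. In the endothelial cells with fewer than 3 leukocyte UMIs, the summed level of 8 granulocyte genes was 27.8 CPM in Ctrl and 169 CPM in KD, and in T cells it was 232 and 2712 CPM. Lcn2, a granulocyte and acute phase gene, had 0 and 209 UMIs, of which 19 lay in KD cells with fewer than 3 leukocyte UMIs, and the part of granulocyte RNA in it was not tested. The acute phase regulator Socs3, which is induced through STAT3, had 667 UMIs (666 CPM) and 1246 UMIs (329 CPM), a log2 ratio of −1.02 (−1.16 to −0.88), against 0.21 in all other cells. Ly9, the gene that the hairpin targets in tumor cells, had 3 UMIs in Ctrl and 8 in KD endothelial cells.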

How the data were processed

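The deposited matrices are tables of raw UMI counts (genes by barcodes, not normalized) from 10x 3′ v3.1 libraries. The submitters' processing notes name Cell Ranger 7.1.0 and GRCm39; the annotation version is not given in the sources used here. The notes also name Seurat 5.1.0 and R 4.4.1. The filter took barcodes with 200 to 6000 genes, no more than 30000 UMIs, and a mitochondrial share of 10% or less.

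Endothelial cells were chosen by the 6 rule and 3 exclusion genes, and their counts were summed per library and scaled to CPM. With 1 library per group no test was made. Intervals are exact (Clopper-Pearson for shares, conditional binomial for ratios, scipy 1.17.1), at 95%, and cover counting error only; a count of 0 was taken as up to 3 counts. Genes were measured at a mean of at least 20 CPM, and called past a log2 ratio of 1 with 0.5 CPM added. The mean was taken over both libraries, so a gene could meet the limit through 1 library alone, as Cxcl1 did through Ctrl. Shares of cells with a UMI are the hypergeometric expectation after thinning each cell to 1500 UMIs, with shallower cells left out. The 130 Ctrl cells limit the precision. The members, gene lists and comparisons were chosen with earlier results of these data known.

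The text names measured members of fixed gene lists, the 12 highest and 12 lowest ratios among 2580 genes with a mean of at least 50 CPM whose endothelial level was at least that of all other cells in the library where the gene was higher (Gm, Rik, mitochondrial, ribosomal, immunoglobulin, T cell receptor and sex genes left out), and the 12 genes with the highest ratio of endothelial to other cells. Others were chosen after their values were seen. Counts for the endothelial comparison (6725 genes, 200 changed) were simulated as independent Poisson draws per gene and library. In them 95.7% of intervals held the true value, all changed genes had the right direction, and 98% of genes with a true log2 ratio of 1.5 passed the fold. Such draws hold counting error alone and do not show how the intervals perform on the real counts. There, UMIs were clustered: 5 Ctrl cells held 55.2% of the Rspo3 UMIs, and 5 held 42.3% of the Sele UMIs.

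Alternatives were other rule, cell and gene limits, removal of likely doublets (Scrublet in scanpy 1.11.5) or of cells with leukocyte UMIs, thinning, means over cells, other denominators and edgeR 4.0.16 TMM scaling.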

Additional observations from a re-analysis of the deposited data

How the results depend on the processing

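No paired analysis was possible because each group had 1 library and no comparison had a test, and for the same reason no replicate could be left out. Recomputed under the alternatives, 87 values that answer a comparison moved by less than the counting interval (1.5 times for counts of genes) and 41 moved by more. For single genes and list medians these numbers were 613 and 47. A reversed direction was looked for only in the endothelial share ratio, list medians and single genes, and none was found. The 36 named genes followed kept their sign in all 15 settings. They included the 12 highest and 12 lowest ratios, chosen for their size in these same cells. Their signs were thus in part fixed in advance. The endothelial share ratio of 4.24 became 6.48 without granulocytes, 6.23 per tumor-like or fibroblast-like cell and 1.94 per Kupffer cell. The sinusoidal-type share was 100% in Ctrl with at least 4 rule genes and under the stricter cell filter. It was 94.6% and 97.2% in Ctrl and KD with at least 2 rule genes, and 97.4% in KD when at least 2 more sinusoidal UMIs were asked for. With Stab2 and Clec4g left out of the marker count, but not of the rule, it was 95.4% and 95.5%.

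Genes past the fold, 104 higher and 135 lower, became 384 and 494 after thinning and 3044 and 2060 among all genes with a UMI, both with fewer counts per gene, 38 and 66 at a mean of at least 50 CPM, and 61 and 80 without genes lower in endothelial than in other cells in the library where the gene was higher; 210 were lower by means over cells. Lower type I interferon genes, 5 in the main analysis, were 3 with at least 2 rule genes, 2 at 50 CPM and 3 without the highest cell of each gene, an alternative chosen after seeing the data. Lower interferon-gamma targets, 3 in the main analysis, were 5 without likely doublets, 5 without cells with leukocyte UMIs, 7 after thinning, 6 by means over cells, 5 among all genes with a UMI and 1 without genes lower in endothelial cells, where immediate early and heat shock genes went from 9 to 3 because 3 members were left. The 4 lower adhesion genes stayed within 1.5 times that count under every setting, while Icam1 ranged from −1.07 to −0.44, Vcam1 from −1.6 to −1.05, Cxcl1 from −2.81 to −1.41 and Taf4b from −2.44 to −0.98.

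Without thinning, more cells held a UMI: Sele 30.0% in Ctrl and 11% in KD, Selp 63.8% and 42.1%, Vcam1 66.9% and 43.0%, Cxcl10 61.5% and 21.5%, Lyve1 64.6% and 75.7%, and Ptprc 14.6% and 19.4%. Scrublet marked 27 Ctrl (20.8%) and 66 KD (11.5%) endothelial cells; without the marked cells, Vcam1 was −1.05 and Icam1 −0.80. Where a value moved and no construction is named, the cause was not tested.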

Other observations

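Of 16 cell cycle genes, 3 were lower and 0 higher, with a median log2 ratio of −0.62, against −0.79 in all other cells. Birc5, a mitotic survival factor, had 76.9 and 25.9 CPM (−1.57), Stmn1, a microtubule regulator, had 242 and 107 CPM (−1.18), and Pcna, the sliding clamp of DNA replication, had 166 and 82.6 CPM (−1.01). Cells with at least 2 of Mki67, Top2a, Birc5, Cdk1 and Ccnb2 after thinning made up 5.75% (2.25 to 11.7) of Ctrl and 3.12% (1.80 to 5.01) of KD endothelial cells, and these intervals overlap.

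Receptors for vascular growth factors differed little. Of 10 VEGF and angiopoietin receptor genes, 0 passed the fold, with a median of 0.09. Flt4, encoding VEGFR3, had 321 and 461 CPM (0.52), Flt1 had 714 and 789 CPM (0.14) and Nrp1, a VEGF co-receptor, had 462 and 517 CPM (0.16). Among tip cell and tumor endothelium genes, 2 of 10 were higher (Trp53i11 and Cxcr4), Insr had 449 and 690 CPM (0.62), and Esm1, a tip cell secretory product, had 35 UMIs in Ctrl and 203 UMIs in KD, a log2 ratio of 0.62 (0.09 to 1.18). Cxcr4 (14.0 and 30.9 CPM) had a ratio of 0.36 in endothelial cells with fewer than 3 leukocyte UMIs, and its part from leukocyte RNA was not tested. Of 8 Notch genes, 1 was higher, Notch4, the endothelial Notch receptor, with 16 and 133 UMIs and a log2 ratio of 1.13 (0.38 to 1.98). Cxcr4 and Notch4 met the limit of 20 CPM through KD alone.

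Shear-responsive genes had a median of −0.42 over 9 genes, 1 lower (Edn1) and 0 higher. Klf2 and Klf4, factors that laminar flow induces, had 737 and 551 CPM (−0.42) and 144 and 72.3 CPM (−0.99), against ratios of 1.13 and 0.41 in all other cells. Nos3, the endothelial nitric oxide synthase, had 47.9 and 68.3 CPM (0.51). Hypoxia and glycolysis genes had a median of 0.13 over 14 genes, with 1 higher (Bnip3, 16.0 and 34.3 CPM, 1.1), and −0.15 in all other cells. Of 12 capillarization and basement membrane genes, Fn1 was higher (7 and 161 UMIs, log2 ratio 2.6) and Fbn1 lower (−1.04). The ratio of Fn1 was 0.50 in endothelial cells with fewer than 3 leukocyte UMIs and 1.85 in macrophages. Bnip3 and Fn1 met the limit of 20 CPM through KD alone. Col4a1 had 584 and 576 CPM and Sparc had 1791 and 1334 CPM.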
